A study of Mus musculus with 6 samples.

Results

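The interleukins and the tumor necrosis factor (TNF) superfamily, with their receptors, were followed in a mouse glial cell line with and without a mutant histone H3.3. Members were all genes whose symbol starts with Il and a digit or with Tnf, found through the RefSeq accession of each array probe. The RefSeq table lists 126 such symbols, 122 of them were on the array, and 64 (18 ligands, 37 receptors and 9 other genes) passed the filter on dim probes, out of 14898 genes tested in all. OS3 cells are SV40-immortalized glial cells from the brain of newborn C3H/HeN mice, labeled C3H and male. WT cells are OS3 cells with the empty vector, and IG27 cells are OS3 cells transfected with a pcDNA3.1(+) plasmid for H3f3a with the K27M change and established by drug selection. Both groups therefore carry SV40 and went through the same culture, in medium with serum, insulin and added glucose, for 2 days before RNA was taken. Each group is 3 replicate samples of one named line, and the p-values cover the spread between these samples. How many drug-selected clones the IG27 samples stand for is not stated. The effect of the mutant histone therefore cannot be told apart from other differences between the lines that were selected.

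Interleukins and TNF family ligands are secreted or membrane-bound signals, and glial cells both make and receive them. Interleukin receptors are mostly pairs of chains, 1 that binds the ligand and 1 that is shared between ligands, such as gp130 (Il6st) or the common gamma chain (Il2rg). Those of the IL6, IL4 and IL12 groups signal through JAK kinases and STAT factors, whereas the IL1 and IL17 receptors and many TNF receptors signal through adaptors of the TRAF group to NF-kB. Some family members are decoys, receptors or soluble proteins that bind a ligand and pass on no signal.

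RNA was measured with Cy3-labeled samples on 6 single-color Agilent mouse arrays of 1 slide. WT replicates 1 and 3 lay in slide row 1, and WT replicate 2 and all IG27 arrays lay in row 2. A fit with the slide row as a block therefore compares IG27 cells with WT replicate 2 alone, so only its differences are given. The scanner output of IG27 replicate 2 is complete for 285 of 62976 spots, so its values came from the deposited table of processed signals, and flags for this array were lacking. On the 5 complete arrays, 58.8% to 61.2% of 56605 probes were well above background, and no spot was saturated. Values below are log2 of the processed signal minus the 75th percentile of the array, so that 0 is that percentile, and 1 unit is a doubling. The lowest value of a probe well above background was between -6.01 and -5.33 on the complete arrays, and the lowest 1% of all probes lay below -7.65 to -8.33. A gene was represented by its brightest tested probe, and levels are compared between arrays for 1 probe, never between probes. The marker sums given below are an exception, as they add several probes. A difference was called at an adjusted p under 0.05 over all genes tested.

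Of the 64 tested members, 27 were higher and 21 were lower in IG27 cells, and 16 were not called. Over all genes tested, 70.5% were called, 30.5% higher and 40.0% lower, against 75%, 42.2% and 32.8% of the members. In such bulk samples, fewer expressing cells and less RNA per cell cannot be told apart. Among the ligands 6 were higher and 7 lower, among the receptors 16 were higher and 11 lower, and among the other genes 5 were higher and 3 lower. A called difference whose measured size was 2-fold or more was seen in 18 members that were higher (28.1%, against 11.5% of all genes tested) and in 14 that were lower (21.9%, against 11.7%). Il17b, Il22 and Il25 are among them, although their bounds, given below, lie under 2-fold. The median size of the log2 difference was 1.05 over the members and 0.47 over all genes tested. The filter needs 1 group to be bright, and 10 of the 64 members were not well above background on any complete array of the other group, so these entered the test through 1 group alone. Over the 47 members well above background on every complete array, the median size was 0.75, against 0.42 over the 13545 genes that met this condition. Subtracting the array median in place of the 75th percentile moved the median of all genes from -0.07 to -0.31 and gave 22 members higher and 26 lower.

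**Figure D1:**
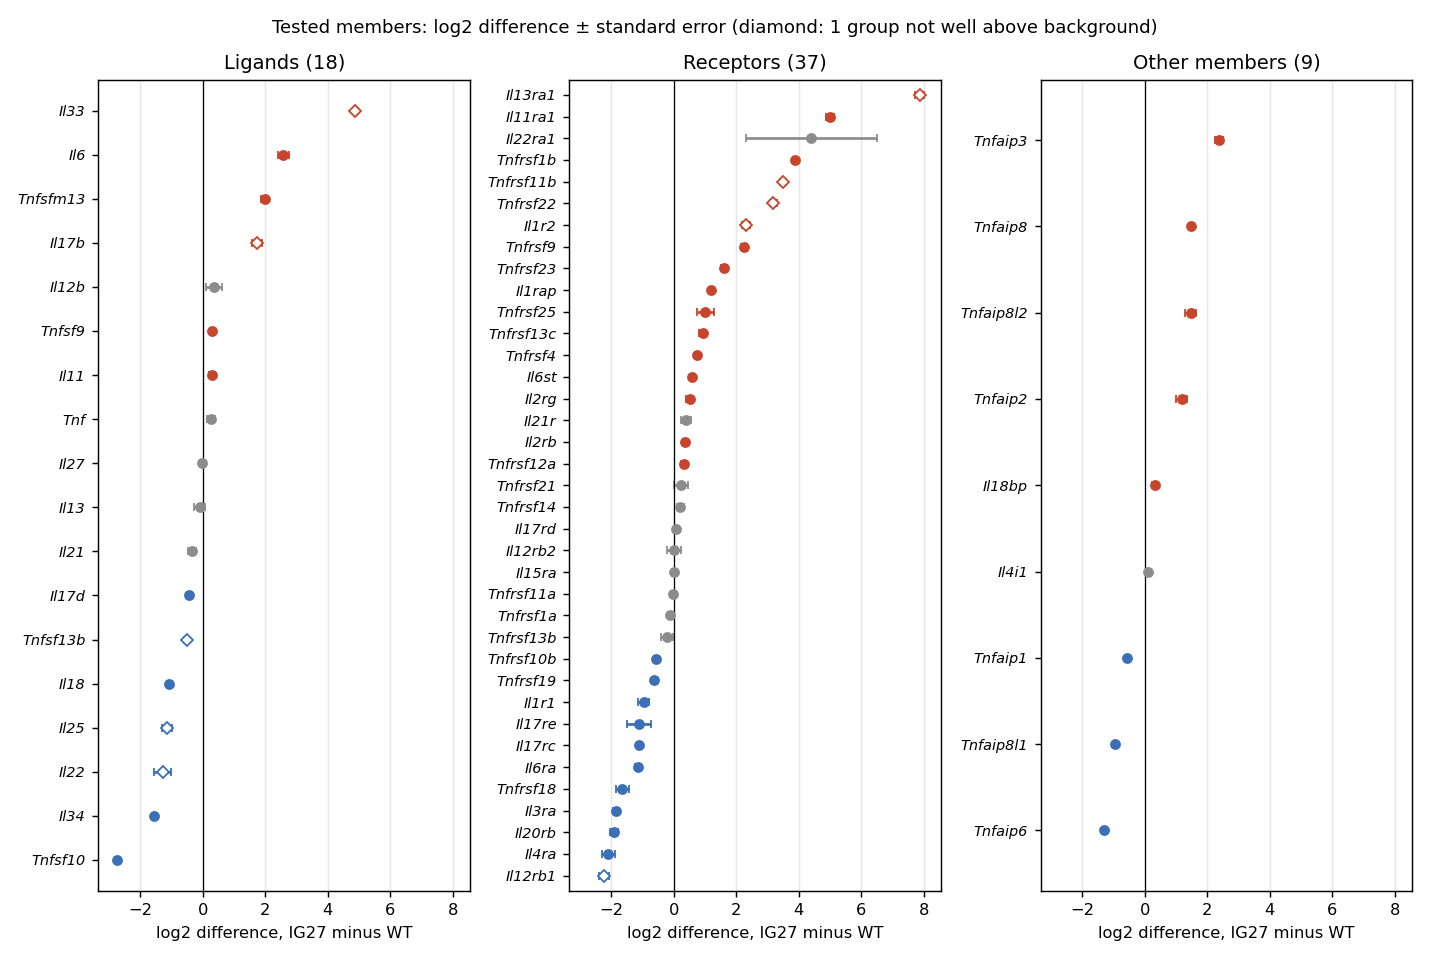
Log2 difference (IG27 minus WT, x axis) of the 64 tested members with its standard error (3 arrays per group), ordered by size within ligands, receptors and other genes. Red points were called higher, blue points lower and grey points not called. Open diamonds mark members with 1 group not well above background on any complete array, where the plotted value is the measured one. Il13ra1 (7.87) lies at 1 end and Tnfsf10 (-2.75) at the other.

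Promoter windows were available for 53 of the 64 tested members in RefSeq tables of GRCm38.p6, each covering 250 bases before and 50 bases after an annotated start site. The NF-kB consensus, the site bound by the factors to which IL1 and TNF receptors signal, was searched on both strands. It was found in 5 of the 21 higher members with a window (23.8%), in 1 of the 17 lower members with a window (5.88%), in 1 of the 15 members not called (6.67%) and in 8.1% of all tested genes with a window. Over the genes of the whole array that were called higher the share was 8.75%. Of all windows in the table, 5.8% held it. The 5 higher members were Il6, Tnfaip3, Tnfrsf9, Tnfaip2 and Tnfrsf25, the lower one was Il4ra, where the match lay after the start site, and the one not called was Il12rb2. The windows of the 5 higher members, chosen for that direction, are shown as examples of where the matches lie, with the matches in capitals and up to 30 bases on each side, ending at the start site at the latest.
Il6 promoter (chr5:30013040-30013109, plus strand): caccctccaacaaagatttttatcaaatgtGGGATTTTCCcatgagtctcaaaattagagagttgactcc
Tnfaip3 promoter (chr10:19015411-19015452, minus strand): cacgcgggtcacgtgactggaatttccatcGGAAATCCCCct
Tnfrsf9 promoter (chr4:150927926-150927996, plus strand): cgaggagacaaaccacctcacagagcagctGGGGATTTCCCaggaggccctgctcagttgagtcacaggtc
Tnfaip2 promoter (chr12:111442607-111442660, plus strand): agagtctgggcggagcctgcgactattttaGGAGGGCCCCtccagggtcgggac
Tnfrsf25 promoter (chr4:152116285-152116342, plus strand): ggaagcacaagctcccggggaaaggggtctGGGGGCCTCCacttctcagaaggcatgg
The matches began 44 bases before the start site in Il6, 12 in Tnfaip3, 24 in Tnfaip2 and 28 in Tnfrsf25. In Tnfrsf9 a pair of matches overlapped, starting 43 and 42 bases before the site, and Tnfrsf25 held another one after its start site. Further motifs were searched on both strands. TTCNNNGAA, the palindrome bound by STAT factors, was in 4 of 21 higher, 4 of 17 lower and 2 of 15 not called members (8.48% of tested genes), and TGANTCA, which includes the AP-1 site, was in 4 of 21, 2 of 17 and 2 of 15 (6.66% of tested genes). No match overlapped a match to another of these motifs. A match is a stretch of letters, and binding was not measured.

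Among the ligands, Il33, Il6 and Tnfsfm13 rose by 2-fold or more and Tnfsf10, Il34 and Il18 fell by 2-fold or more. Il33, an alarmin of the IL1 family that is kept in the nucleus and released from damaged cells, read -7.86, -7.77 and -8.10 in the WT arrays and -3.07, -2.97 and -3.01 in the IG27 arrays. On the WT arrays 13.0%, 5.67% and 16.3% of all probes were as dim or dimmer, and no WT array was well above background, so the rise is given as at least 6.74-fold (measured log2 difference 4.89 ± 0.09, adjusted p = 1.98e-07). A further probe for Il33 was not well above background and was not tested. Il6, the cytokine that acts on glia and neurons through gp130, read -3.22, -3.29 and -2.64 in the WT arrays and -0.54, -0.51 and -0.37 in the IG27 arrays. The groups did not overlap, and the difference was 2.57 ± 0.18 (SE, n = 3 per group, adjusted p = 3.37e-05), or 5.96-fold. A second Il6 probe gave 2.55, nearly the same size. Tnfsfm13, the read-through transcript of the neighboring Tnfsf12 and Tnfsf13 genes, read -4.74, -4.73 and -4.36 in the WT arrays and -2.69, -2.54 and -2.63 in the IG27 arrays, a difference of 1.99 ± 0.11 (SE, n = 3 per group, adjusted p = 1.46e-05). Its probe can share sequence with both partners, and Tnfsf13 had no probe of its own here. The rise can therefore not be assigned to 1 of these transcripts. Tnfsf12 (TWEAK) itself had probes that were well above background on 1 WT array and no complete IG27 array.

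Tnfsf10 (TRAIL), a ligand that can trigger death in tumor cells, was the ligand that fell the most. It read 1.22, 1.09 and 1.16 in the WT arrays and -1.59, -1.61 and -1.57 in the IG27 arrays. Replicates lay within 0.13 units of each other, and the fall was -2.75 ± 0.05 (SE, n = 3 per group, adjusted p = 1.91e-07), or 6.71-fold. Il34, the brain's second ligand of the Csf1r receptor and a survival signal for microglia, read 0.30, 0.19 and 0.19 in the WT arrays and -1.31, -1.29 and -1.42 in the IG27 arrays, a difference of -1.56 ± 0.06 (adjusted p = 2.77e-06), and its second probe gave -1.52. Il18, an IL1 family cytokine made as a precursor that caspase-1 cuts, read 2.74, 2.77 and 2.81 in the WT arrays and 1.74, 1.70 and 1.63 in the IG27 arrays. It fell by 1.09 ± 0.05 on the log2 scale (adjusted p = 6.66e-06), 2.12-fold, and its groups did not overlap either.

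Ligands with smaller or bounded differences, named after their values were seen, went both ways. Il17b was dim on all WT arrays, and its measured rise of 1.75 ± 0.16 is given as at least 1.96-fold. Il22 (-1.28 ± 0.27), Il25 (-1.14 ± 0.16) and Tnfsf13b (BAFF, -0.50 ± 0.08) were not well above background on a complete IG27 array, and their falls were at least 1.47-fold, 1.8-fold and 1.42-fold. Tnfsf9, the ligand of 4-1BB, rose by 0.30 ± 0.05 (adjusted p = 0.00295), a call lost after centering on the array median (0.057, adjusted p = 0.465), and Il17d fell (-0.43 ± 0.06, adjusted p = 0.000824). Il11, a gp130 cytokine, read -2.17, -2.35 and -2.45 in the WT arrays and -2.12, -1.91 and -2.07 in the IG27 arrays, with a difference of 0.29 ± 0.10 (adjusted p = 0.0325). This call was lost without WT replicate 2 (0.28, adjusted p = 0.082), WT replicate 3 (0.23, adjusted p = 0.0905), IG27 replicate 2 (0.23, adjusted p = 0.0961) or IG27 replicate 3 (0.31, adjusted p = 0.0623). The Il11 call was also lost with array median centering (0.05, adjusted p = 0.66), quantile normalization (0.15, adjusted p = 0.191) and the replicate block (adjusted p = 0.0595). Tnf read -3.53, -3.24 and -3.69 in the WT arrays and -3.29, -3.07 and -3.29 in the IG27 arrays and was not called (0.27 ± 0.13, adjusted p = 0.113), but it passed when WT replicate 2 was left out (0.39, adjusted p = 0.0186) and with the replicate number as a block (adjusted p = 0.0269). Il12b, Il27, Il13 and Il21 were not called either, but Il12b passed without IG27 replicate 3 (0.62, adjusted p = 0.0212) and with the replicate block (adjusted p = 0.0364). Il21 passed as lower without WT replicate 3 (-0.44, adjusted p = 0.0359) or IG27 replicate 2 (-0.44, adjusted p = 0.0415). It also passed as lower with the replicate block (adjusted p = 0.0051), quantile normalization (0.00397) and array median centering (0.00332). With the slide row as a block the Il21 difference was -0.57. Il27 passed as lower after array median centering (-0.25, adjusted p = 0.0161).

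Most ligands were too dim to test. Of 51 ligand genes on the array, 33 were not tested, and 27 of these had no probe well above background on any complete array. They included Il1a and Il1b, the founding IL1 cytokines, Il1rn, their natural antagonist, and Tnfsf11 (RANKL). The others were above background on 1 or 2 of the 5 complete arrays. Such genes have no measured direction here.

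**Figure D2:**
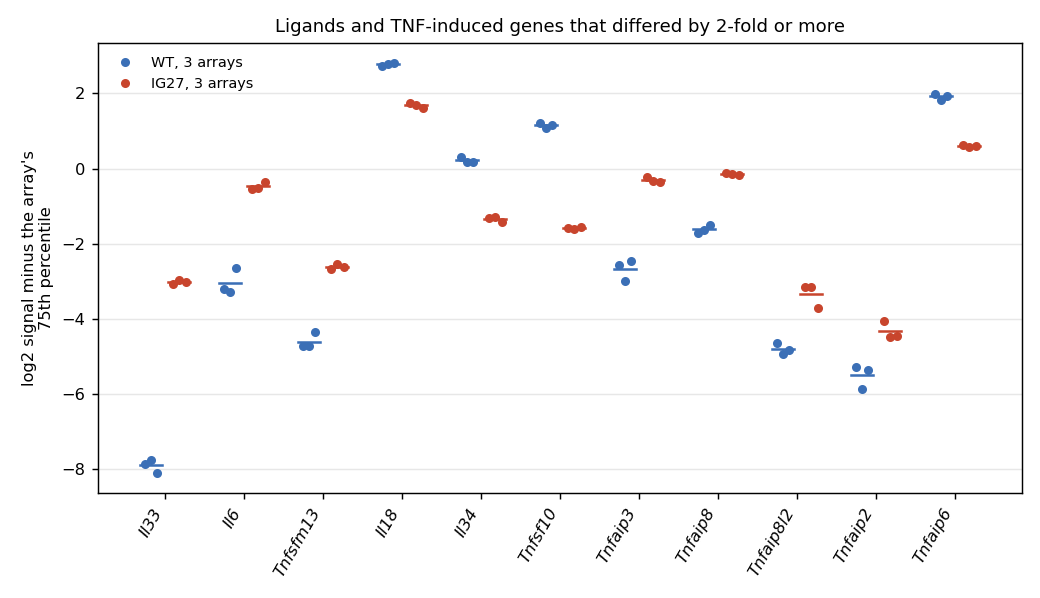
Log2 signal relative to the 75th percentile of the array (y axis) in each of 3 WT arrays (blue) and 3 IG27 arrays (red) for the ligands and TNF-induced genes that differed by 2-fold or more. Points are arrays and lines are group means. The groups do not overlap in any of these genes, and the WT arrays of Il33 lie near -7.9.

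Among the receptors of the IL4 and common gamma chain group, Il13ra1 rose and Il4ra fell. Il13ra1 pairs with Il4ra to form the receptor that binds IL13 and IL4 on cells outside the blood lineage. It read -8.06, -7.79 and -8.31 in the WT arrays and -0.01, -0.29 and -0.26 in the IG27 arrays. In the WT arrays only 1.68%, 3.79% and 2.33% of all probes were as dim or dimmer, so the 234-fold measured ratio (log2 7.87 ± 0.15, adjusted p = 1.91e-07) is better given as at least 48-fold. Il4ra, its partner chain, read -0.40, 0.33 and 0.40 in the WT arrays and -1.99, -1.97 and -1.99 in the IG27 arrays. WT replicate 1 was at least 0.73 units below the other WT arrays and still at least 1.58 above every IG27 array, and the difference was -2.09 ± 0.21 (adjusted p = 0.000191). A second Il4ra probe fell by only 0.27 on the log2 scale, so the size depends on the probe. Il2rg rose slightly, with -2.87, -2.80 and -3.11 in the WT arrays and -2.22, -2.48 and -2.54 in the IG27 arrays (0.51 ± 0.12, adjusted p = 0.00826). It lost the call with the slide row as a block (0.38). Il13ra2, the decoy for IL13, was well above background on 1 complete array. The ligand Il13 was not called, and Il4 had no probe well above background.

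In the gp130 and IL12 group, Il6 and the shared chain rose while its own receptor chain fell. Il6ra, which binds IL6, read 2.65, 2.64 and 2.63 in the WT arrays and 1.60, 1.56 and 1.30 in the IG27 arrays, a difference of -1.15 ± 0.09 (adjusted p = 5.08e-05), with -0.92 at a second probe. Il6st (gp130) read 1.89, 1.89 and 1.89 in the WT arrays and 2.49, 2.48 and 2.43 in the IG27 arrays and rose by 0.57 ± 0.04 (adjusted p = 4.94e-05). A dimmer Il6st probe gave 0.19 and was not called. Il11ra1, the IL11 receptor chain, showed the second largest called rise of all members, with -2.32, -2.76 and -2.54 in the WT arrays and 2.62, 2.34 and 2.43 in the IG27 arrays. This is 5.00 ± 0.13 (adjusted p = 5.93e-07), or 32.1-fold, against 1.22-fold for its ligand Il11, whose call depended on the setting. The mouse genome holds the close copy Il11ra2, which had no probe of its own here, so the signal may come from either copy. Il12rb1, a chain shared by the IL12 and IL23 receptors, read -3.29, -3.32 and -3.14 in the WT arrays and -5.28, -5.86 and -5.31 in the IG27 arrays, and no complete IG27 array was well above background, which makes the fall at least 4.16-fold (adjusted p = 4.40e-05). Its partner Il12rb2 did not pass the test.

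Within the IL1 receptor family, the signaling chain and the decoy moved in opposite directions. Il1r1, the receptor that signals, read 3.21, 2.98 and 3.03 in the WT arrays and 1.73, 2.30 and 2.31 in the IG27 arrays and fell (-0.96 ± 0.17, adjusted p = 0.00276). IG27 replicate 1 was the lowest of its group, and every IG27 array was below every WT array. Il1r2, the decoy that binds IL1 without signaling, read -5.53, -5.64 and -5.83 in the WT arrays and -3.11, -3.46 and -3.50 in the IG27 arrays. No WT array was well above background, and the rise was at least 4.84-fold (log2 2.31 ± 0.13, adjusted p = 1.34e-05). Il1rap, the accessory chain used by IL1, IL33 and IL36 receptors, read 2.52, 2.54 and 2.57 in the WT arrays and 3.72, 3.78 and 3.74 in the IG27 arrays, a difference of 1.20 ± 0.05 (adjusted p = 2.55e-06). Its other probes rose by 0.54 and 2.10, so 3 probes gave 3 sizes and 1 direction. Il1rl1 (ST2), the specific receptor of IL33, had no probe well above background on any complete array. The Il18r1 and Il18rap chains for IL18 were likewise dim on all of them. Il18bp, the soluble binder that blocks IL18, rose a little (0.32 ± 0.07, adjusted p = 0.00877), a call lost after array median centering (0.077, adjusted p = 0.517).

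Of 6 tested receptors of the IL17, IL10 and IL3 families, 4 fell, where 40.0% of all genes tested were lower, and the call of 1 of them, Il17re, depended on the setting. Il17rc, a partner chain of the IL17 receptor, read 5.09, 5.00 and 5.02 in the WT arrays and 3.99, 3.98 and 3.79 in the IG27 arrays, a difference of -1.11 ± 0.07 (adjusted p = 2.26e-05). Il17re, the IL17C receptor chain, read -4.67, -4.45 and -4.68 in the WT arrays and -4.93, -5.66 and -6.54 in the IG27 arrays, with a wide spread in IG27 cells. It was well above background on 1 of 2 complete IG27 arrays. Its difference of -1.11 ± 0.39 (adjusted p = 0.0404) lost the call without any of WT replicates 1, 2 or 3 or IG27 replicate 2 (adjusted p from 0.0721 to 0.103). It also lost the call with the slide row as a block (-1.27). A second, dimmer Il17re probe gave -1.27. Il17ra, the chain common to these receptors, was not well above background on any complete array. Il3ra, the IL3-binding chain, read 3.09, 3.03 and 3.15 in the WT arrays and 1.42, 1.03 and 1.27 in the IG27 arrays and fell (-1.85 ± 0.11, adjusted p = 1.46e-05), and its second probe gave -1.72. Il20rb, a chain for IL20 and IL24, read -1.50, -1.55 and -1.53 in the WT arrays and -3.72, -3.29 and -3.27 in the IG27 arrays, a difference of -1.90 ± 0.13 (adjusted p = 3.01e-05). Il22ra1 read -7.58, 0.30 and -0.12 in the WT arrays and 2.16, 2.01 and 1.62 in the IG27 arrays. A single WT array decided this gene, since WT replicate 1 was not well above background while the other two were near 0. The difference was 4.40 ± 2.09 (adjusted p = 0.105), which was not called, and without WT replicate 1 it was called at 1.84 (adjusted p = 6.02e-04).

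Of 17 tested TNF superfamily receptors with Tnf symbols, 9 were higher and 3 were lower, against 30.5% and 40.0% of all genes tested. Of the 5 tested receptors of this superfamily with other symbols, given below, 1 was higher and 4 were lower. Tnfrsf11b and Tnfrsf22, among the 9, were not well above background on any WT array and entered the test through IG27 cells alone. Centering on the array median removed the call of Tnfrsf12a and called Tnfrsf11a and Tnfrsf1a lower. Of the main TNF receptors, Tnfrsf1b rose. Tnfrsf1a (TNFR1), the widely expressed receptor with a death domain, read 4.10, 4.16 and 4.26 in the WT arrays and 4.05, 4.01 and 4.07 in the IG27 arrays and was not called (-0.13 ± 0.06, adjusted p = 0.0812). A second probe was called lower (-0.26). Tnfrsf1b (TNFR2), which lacks a death domain and binds TRAF2, read -4.35, -4.35 and -4.55 in the WT arrays and -0.53, -0.57 and -0.53 in the IG27 arrays. The rise of 3.87 ± 0.07 (adjusted p = 1.60e-07) is 14.6-fold, with replicates of each group within 0.2 units. The ligand Tnf was not called, as given above, and the lymphotoxins Lta and Ltb, which share these receptors or Ltbr, rose by 0.50 ± 0.08 and 0.50 ± 0.16.

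The receptors and decoys of TRAIL and RANKL were read beside the fall of Tnfsf10. Tnfrsf10b, the mouse TRAIL death receptor, read -3.14, -3.07 and -3.15 in the WT arrays and -3.63, -3.57 and -3.82 in the IG27 arrays and fell (-0.56 ± 0.08, adjusted p = 0.000779). Tnfrsf22, a decoy receptor for TRAIL in mice, read -7.87, -7.75 and -8.01 in the WT arrays and -4.58, -4.61 and -4.88 in the IG27 arrays, with no WT array well above background, and rose at least 2.12-fold (log2 3.19 ± 0.11, adjusted p = 1.62e-06). Its neighbor and close relative Tnfrsf23, also a TRAIL decoy, read -4.55, -4.57 and -4.30 in the WT arrays and -2.80, -2.96 and -2.82 in the IG27 arrays, a difference of 1.61 ± 0.09 (adjusted p = 1.44e-05). As these genes resemble each other in sequence, some cross-binding between their probes is possible. Tnfrsf11b (osteoprotegerin), a soluble decoy for RANKL that also binds TRAIL, read -6.77, -6.50 and -6.46 in the WT arrays and -3.13, -2.99 and -3.11 in the IG27 arrays. No WT array was well above background, and the rise was at least 6.47-fold (log2 3.50 ± 0.10, adjusted p = 7.28e-07). Tnfrsf11a (RANK), the signaling receptor, was not called. The 4 tested decoy receptors, Il1r2, Tnfrsf11b, Tnfrsf22 and Tnfrsf23, were all higher in IG27 cells, as were 30.5% of all genes tested. The grouping was made after their values were seen. All but Tnfrsf23 were dim in WT cells, and these 3 entered the test only through their level in IG27 cells. For them a higher level in IG27 cells was thus a condition of entry.

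Costimulatory receptors, best known from T cells, moved both ways. Tnfrsf9 (4-1BB) read -3.85, -4.14 and -3.83 in the WT arrays and -1.71, -1.65 and -1.76 in the IG27 arrays, a difference of 2.23 ± 0.10 (adjusted p = 4.28e-06), and its promoter holds the overlapping NF-kB matches shown above. A dimmer Tnfrsf9 probe also rose (3.35), but its WT replicate 2 (-2.80) stood far from the other WT arrays (-6.43 and -6.77). Tnfrsf4 (OX40) rose (0.75 ± 0.06, adjusted p = 5.90e-05), whereas its chromosomal neighbor Tnfrsf18 (GITR) fell, with -3.79, -4.04 and -3.68 in the WT arrays and -5.02, -5.63 and -5.79 in the IG27 arrays (-1.64 ± 0.21, adjusted p = 0.000637). Tnfrsf18 was well above background on 1 of 2 complete IG27 arrays, so its lower level lies partly at background. Tnfrsf25 (DR3), a death domain receptor, read -0.46, 0.51 and 0.51 in the WT arrays and 1.20, 1.16 and 1.23 in the IG27 arrays. WT replicate 1 was at least 0.97 units below the other WT arrays, and the rise of 1.01 ± 0.27 (adjusted p = 0.0146) was not called with the slide row as a block (0.69). Tnfrsf13c, the BAFF receptor, rose (0.92 ± 0.10) at its brightest probe, while a second probe was not called (1.32, adjusted p = 0.128 over all tested probes). Its ligand Tnfsf13b fell, a call lost after normexp background correction of the complete arrays (-0.16, adjusted p = 0.0637).

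Tnfrsf12a (Fn14), the TWEAK receptor, read 4.86, 4.74 and 4.74 in the WT arrays and 5.19, 5.07 and 5.02 in the IG27 arrays, a difference of 0.31 ± 0.07 (adjusted p = 0.00574) that was not called after centering on the array median (0.07, adjusted p = 0.397). Tnfrsf19 (TROY) read -0.85, -0.60 and -0.67 in the WT arrays and -1.35, -1.41 and -1.21 in the IG27 arrays and fell (-0.62 ± 0.09, adjusted p = 0.000965), with -0.30 at a second probe. Tnfrsf21 (DR6) read -3.90, -4.08 and -3.75 in the WT arrays and -3.47, -4.18 and -3.41 in the IG27 arrays and was not called (0.22 ± 0.22, adjusted p = 0.395). IG27 replicate 2 was below the WT arrays, and without it the gene was called higher (0.47, adjusted p = 0.0149), but the sign turned under quantile normalization (-0.01) and array median centering (-0.02). Il2rb, a chain of the IL2 and IL15 receptors, rose by 0.37 ± 0.09 at its brightest probe and gave -0.08 at another. Its call was lost under quantile normalization (adjusted p = 0.105), array median centering (0.29) and the mean of its probes (0.149).

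**Figure D3:**
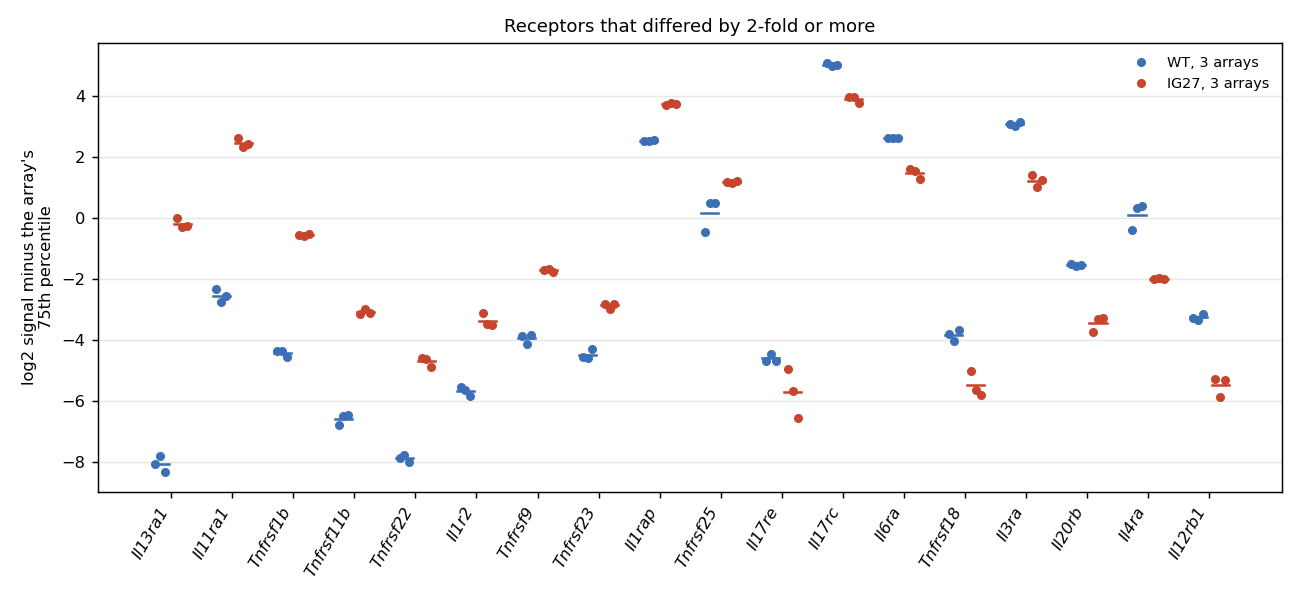
Log2 signal relative to the 75th percentile of the array (y axis) in each of 3 WT arrays (blue) and 3 IG27 arrays (red) for the 18 receptors that differed by 2-fold or more. Points are arrays and lines are group means. WT replicate 1 stands below the other WT arrays in Il4ra and Tnfrsf25, and IG27 arrays spread widely in Il17re.

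The other members with these symbols are mainly genes that TNF induces. Tnfaip3 (A20), the enzyme that ends NF-kB signaling and is itself an NF-kB target, read -2.58, -3.00 and -2.47 in the WT arrays and -0.24, -0.33 and -0.36 in the IG27 arrays. The difference was 2.37 ± 0.14 (SE, n = 3 per group, adjusted p = 1.72e-05), 5.18-fold. Tnfaip8, a regulator of cell survival, read -1.71, -1.63 and -1.51 in the WT arrays and -0.12, -0.14 and -0.18 in the IG27 arrays (1.47 ± 0.06, adjusted p = 4.93e-06). Its second probe gave 2.58, with WT replicate 3 (-3.96) below the other WT arrays (-1.70 and -1.60). Tnfaip8l2, its relative in immune cells, rose from -4.65, -4.93 and -4.82 to -3.15, -3.15 and -3.72 (1.46 ± 0.17, adjusted p = 0.000395). Tnfaip2 rose from -5.29, -5.87 and -5.38 to -4.07, -4.49 and -4.46 (1.17 ± 0.19, adjusted p = 0.00171), and it was well above background on 2 of 3 WT arrays. Tnfaip6 (TSG-6), a secreted hyaluronan-binding protein, went the other way, with 1.99, 1.83 and 1.94 in the WT arrays and 0.64, 0.57 and 0.61 in the IG27 arrays and a difference of -1.31 ± 0.06 (adjusted p = 5.16e-06). Tnfaip8l1 (-0.95 ± 0.06) and Tnfaip1 (-0.56 ± 0.06) fell as well. All called members of this group had WT and IG27 arrays that did not overlap, as was the case for 75.7% of all genes tested.

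Agreement between probes could be checked in 20 members with 22 further tested probes. Of these probes, 20 had the sign of the brightest one, 17 had the same call, and 0 were called in the opposite direction. The opposite signs were in Il15ra, which was not called at any probe, and in Il2rb. The sizes differed most in Il4ra, Tnfrsf14, Tnfrsf9, Tnfaip8 and Il1rap. Tnfrsf14 (HVEM) was not called at its brightest probe (0.21 ± 0.11, and 0.30 with adjusted p = 0.0483 without IG27 replicate 3), whereas a dimmer probe rose by 1.48. Probes of 1 gene can lie in different exons, and the transcripts they detect were not told apart.

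**Figure D4:**
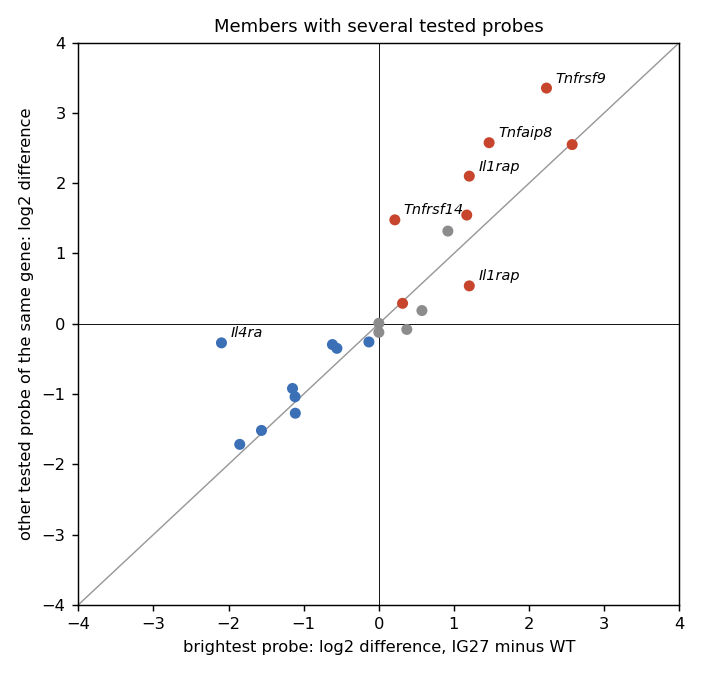
Log2 difference (IG27 minus WT) of the brightest probe (x axis) against each of the 22 other tested probes (y axis) of 20 members. The grey line marks equal differences, and colors give the call of the other probe (red higher, blue lower, grey not called). Il4ra lies far above the line on the left (-2.09 and -0.27), and Tnfrsf14 was called only at its dimmer probe (0.21 and 1.48).

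Position in the genome was not part of the rule. In the RefSeq gene order, 5 pairs of tested members were neighbors among protein-coding genes. Il17re and Il17rc fell together and Tnfrsf22 and Tnfrsf23 rose together, whereas Il1r2 and Il1r1 moved in opposite directions, as did Tnfrsf4 and Tnfrsf18. Il4ra fell, and its neighbor Il21r was not called (0.38 ± 0.15, and 0.54 with adjusted p = 0.00751 without IG27 replicate 3). For the 13 called members with a log2 difference of 2 or more in either direction, the 2 nearest tested genes on each side were examined. Of these 52 genes, 29 were called in the direction of the member, where 30.5% of all genes tested were called higher and 40.0% lower. Il1r1, Tnfrsf23 and Il21r, themselves members, are among the 52. All 4 were for Tnfsf10, Tnfaip3 and Tnfrsf9, and 0 of 4 were for Il4ra. Beside Il13ra1, the next tested gene on 1 side, Dock11, was also higher (at least 43.4-fold), while the gene after it, Gm10487, was lower (at least 1019-fold). On the other side Lonrf3 was not called (-0.05) and Pgrmc1 was lower (-0.61, adjusted p = 2.47e-04). Beside Tnfrsf1b, Dhrs3 was higher too (at least 62.5-fold) and Vps13d, the gene after it, was not called (0.08). On the other side Smarca5-ps (-0.74, adjusted p = 2.99e-04) and Znf41-ps (at least 2.16-fold) were lower.

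Family members with other symbols and the signaling genes below the receptors were counted from fixed lists. Over all genes tested, 30.5% were higher and 40.0% were lower. Of 4 tested TNF family ligands with other symbols, 3 were higher and 1 was lower. Eda rose most (3.58 ± 0.06) followed by Lta, and Fasl fell (-2.60 ± 0.18, at least 1.6-fold since IG27 cells were dim). Of 5 tested receptors, 1 was higher and 4 were lower. Ltbr, the lymphotoxin beta receptor, read -7.52, -7.61 and -8.10 in the WT arrays and 1.62, 1.37 and 1.49 in the IG27 arrays, a rise of at least 153-fold, with no WT array well above background. Eda2r (at least 3.85-fold) and Ngfr (-2.92 ± 0.06) fell most, so the ligand Eda and its receptor Eda2r moved in opposite directions.

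Of 6 tested cytokines related to the gp130 group, 2 were higher and 4 were lower, against 30.5% and 40.0% of all genes tested. Tslp, an alarmin of barrier tissue, read -7.60, -7.79 and -8.29 in the WT arrays and -0.82, -0.84 and -0.68 in the IG27 arrays, at least 31.8-fold higher, and Lif rose at least 2.65-fold. Ebi3, the partner chain of IL27, fell at least 1.54-fold, and Clcf1 fell by 0.77 on the log2 scale. Of 8 tested receptors, 1 was higher (Lifr, 0.46 ± 0.06) and 5 were lower. Csf2ra fell at least 7.85-fold. Crlf2, the Tslp receptor chain, fell too (-2.29 ± 0.08), while Il7r, its partner, was dim on all complete arrays. Csf1r, the receptor of Il34, was lower too (-1.57 ± 0.16), though another of its probes gave -0.13.

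In the list of IL1 and TNF signaling to NF-kB, 34 of 37 genes were tested, and 14 were higher and 12 lower. Traf3ip2 (Act1), the adaptor of the IL17 receptors, read -6.44, -6.28 and -6.57 in the WT arrays and -0.45, -0.36 and -0.53 in the IG27 arrays, a rise of at least 40-fold. Nfkbiz, a nuclear co-factor that NF-kB induces, rose by 3.58 ± 0.09. Cyld, which removes ubiquitin from TRAF proteins, fell most (-1.36 ± 0.06), followed by Irak1 (-1.25 ± 0.09), a kinase of the IL1 receptor. Myd88, Irak3 and Birc3 were not tested. The median difference of the list was 0.06. In the JAK-STAT list, 21 of 23 genes were tested, with 4 higher, 11 lower and a median of -0.33. Socs3 and Socs2, feedback inhibitors, rose by 1.96 ± 0.05 and 1.42 ± 0.13. Jak3, the kinase of the common gamma chain, and Cish, another feedback inhibitor, fell by 2.19 and 2.15 on the log2 scale. In the IL1 processing list of 5 genes, 1 was higher and 3 were lower. Casp1, which cuts IL1 and IL18 precursors, fell (-1.31 ± 0.05), as did Casp4 (-0.49 ± 0.07) and Pycard (-0.37 ± 0.12). Gsdmd, the pore through which mature IL1 leaves the cell, rose at least 49-fold at its brightest probe. Another Gsdmd probe gave 2.89. Over all genes tested, 30.5% were higher and 40.0% were lower, with a median of -0.07. The counts of the pathway lists were not recomputed under array median centering, which moved that median to -0.31, so their splits may depend on the centering.

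**Figure D5:**
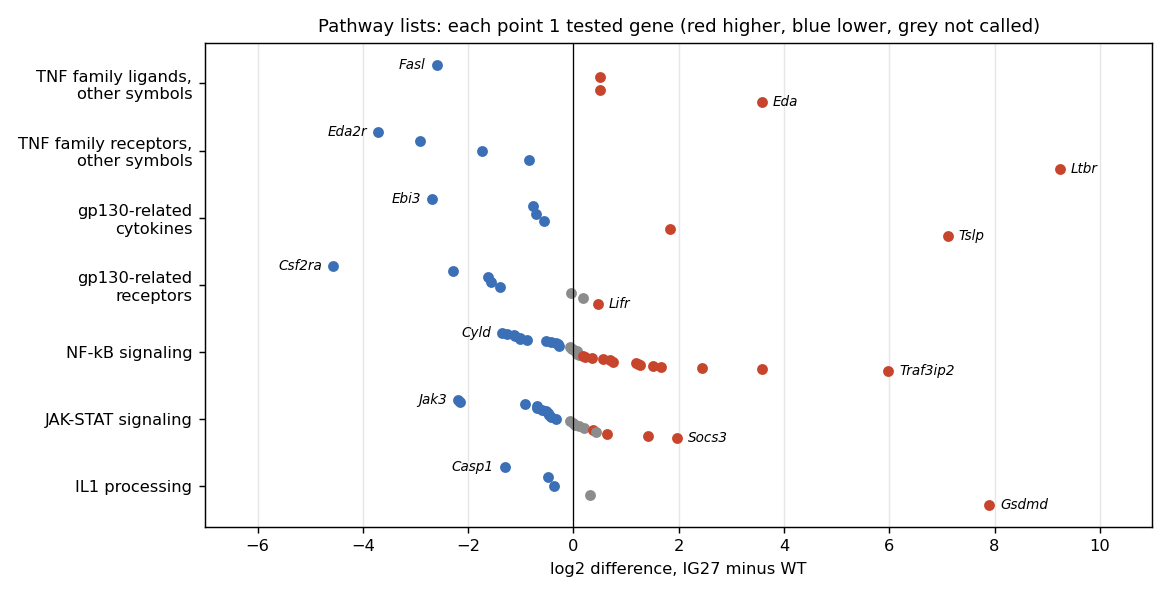
Log2 difference (IG27 minus WT, x axis) of every tested gene of 7 pathway lists (y axis), 1 point per gene. Red points were called higher, blue lower and grey not called, and the lowest and highest gene of each list is named. Ltbr, Gsdmd and Tslp lie farthest to the right, each with no WT array well above background, and the values plotted are the measured ones.

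As several members are best known from immune cells, markers of glial and other cells were read beside them. Over all genes tested, 30.5% were higher and 40.0% were lower, which is the background of the marker counts. All 15 genes of the glial list were tested and 12 were well above background on every complete array, with 6 higher and 6 lower. Mbp was among the higher ones (0.92 ± 0.07), but another of its probes gave -2.30. Slc1a3 (at least 20.6-fold) and S100b (4.93 ± 0.09) rose most, and Aldh1l1 (-1.72 ± 0.35) and Gfap (-1.07 ± 0.09) fell most, although another Gfap probe gave 0.19. Of 11 microglia and macrophage markers 6 were tested, while the defining Ptprc (CD45), Cx3cr1, Tyrobp, Adgre1 and C1qa were not. Of the 6, 4 were higher, namely Aif1 (1.66 ± 0.30), P2ry12 (0.49 ± 0.07), Cd68 (0.31 ± 0.07) and Itgam (0.20 ± 0.05), and 2 were lower, namely Csf1r and Tmem119 (-0.76 ± 0.08). The rises of Cd68 and Itgam are no larger than that of Il18bp (0.32), which lost its call after array median centering. Aif1 was well above background on 1 WT array, and its rise was 0.50 after normexp background correction. The summed linear signal of the 6, in units of each array's 75th percentile, was 15.3 to 16.3 in WT arrays and 14.9 to 15.3 in IG27 arrays. Such a sum is led by the probe with the highest signal, here Itgam, so it can stay level while single markers move. Of 6 T cell and NK cell markers 3 were tested, with 0 higher and 1 lower (Cd3d, -0.37 ± 0.13, adjusted p = 0.0446), and sums of 1.42 to 1.81 in WT and 1.50 to 1.76 in IG27 arrays. The Cd3d call was lost without WT replicate 1 or 2 or IG27 replicate 1 or 3 (adjusted p from 0.0888 to 0.12). Of 5 endothelial markers 2 were tested. Kdr rose at least 135-fold and Pecam1 fell (-0.27 ± 0.08), while Cdh5, Tek and Cldn5 were not tested. The sum was 0.162 to 0.178 in WT and 2.58 to 2.65 in IG27 arrays, where Kdr led it. The Pecam1 call was lost without WT replicate 1 or 2 or IG27 replicate 1 or 2 (adjusted p from 0.0519 to 0.0724). Of 6 fibroblast markers 4 were tested. Dcn (at least 3.32-fold) and Col3a1 (1.57 ± 0.05) rose and Pdgfrb (-1.16 ± 0.04) and Col1a1 (-0.92 ± 0.05) fell, with sums of 150 to 154 in WT and 134 to 142 in IG27 arrays. These sums join the fall of Col1a1 and the rise of Col3a1, which had the highest signals. The part of these marker differences in the cytokine and receptor values was not tested.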

How the data were processed

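RNA of 3 WT and 3 IG27 samples was hybridized to single-color Agilent mouse arrays. The authors scanned them with Feature Extraction (version 9.1 in the submitters' processing notes, 10.7.3.1 in the file headers), and the deposited processed signal is an intensity on a linear scale. In the deposited value table WT replicates 2 and 3 carry each other's scanner values (relative tolerance 1e-04), and the scanner files' labels were followed. IG27 replicate 2 was read from the table.

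Control spots and flagged outliers (107 to 210 spots on a complete array) were dropped, and log2 values were centered on the 75th percentile. A gene entered the test if 1 of its probes passed the flag for signal well above background throughout the complete arrays of either group, which held for 14898 genes. IG27 was compared with WT in limma 3.58.1 (R 4.3.3) by lmFit and eBayes without a block, and two-sided p-values were adjusted by Benjamini-Hochberg over these genes. On simulated data for the same 14898 genes, 57 of 111 genes shifted by 0.5 log2 units and 66 of 89 shifted by 1 were called, and 8 unshifted genes were called. Only these few genes were shifted, whereas 70.5% of genes were called in the real data. The adjustment depends on the share of changed genes, so the simulation does not give the sensitivity of the real comparison. For a bound, the mean of the bright group was set against the dim group, each dim array taken at its own value or at the lowest value well above background on it, whichever was higher. For IG27 replicate 2 the higher limit of the other IG27 arrays was used.

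Members with a called difference of 2-fold or more and groups that did not overlap were named, as were 29 fixed members and the 2 largest called rises and falls of each list. Any other member or flanking gene named was chosen after its values were seen. Members and lists were chosen with earlier results of these data known. Roles were assigned by hand. Names and promoters came from RefSeq tables (GRCm38.p6).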

Additional observations from a re-analysis of the deposited data

How the results depend on the processing

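The counts of members were recomputed under 19 alternatives, of which 6 left out 1 array. Leaving out 1 array gave 26 to 29 members higher and 20 to 21 lower, 5 to 6 ligands higher and 7 to 8 lower, and 16 to 18 receptors higher and 10 to 11 lower. In these settings 65.8% to 68.1% of all genes tested were called. When probes had to be well above background on every complete array, 4 ligands were lower in place of 7, since the dim ones were no longer tested, and no call among the 35 members still tested was lost. Over all genes of that setting 70.7% were called. Centering on the array median turned the split between higher and lower members from 56.2% higher to 45.8% higher, and 73.7% of all genes tested were called. With no filter on dim probes, 122 members were tested and 52 were called, where 44.6% of all 22911 genes were called. The same replicate numbers do not pair the samples (r of the deviations 0.01, 0.04 and 0.08), and with the replicate number as a block 28 members were higher and 22 lower, 7 ligands higher and 8 lower, and 16 receptors higher and 11 lower. With the slide row as a block, which compares IG27 cells with WT replicate 2, 24 were higher and 21 lower. The methods' moderated test at an unadjusted p of 0.05 or less called 28 higher and 22 lower, and 72.9% of all genes tested.

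Of the 48 called members, 39 kept their call and direction in each alternative that tested them, and 9 lost the call in at least 1, Il11 in 10 and Il17re in 7. Of the values printed, Tnfrsf1a turned to 0.019 under quantile normalization, Tnfrsf21 to -0.0068 under quantile normalization and -0.015 after array median centering, and Tnfrsf14 to -0.026 after array median centering. None of these 3 was called in the main test, and the cause was not tested. Of all 64 tested members 10 changed sign in some alternative, and 0 of them were called in the main test. With 3 arrays per group and with 17 of the 64 tested members dim on some complete array, the number of arrays and the signal over background limit what could be called.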
